A study of Sebastes schlegelii with 6 samples.

Results

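Macroautophagy encloses cytoplasm in a double membrane, the autophagosome, and delivers it to the lysosome for breakdown. It was followed here through the transcripts of its machinery in livers of the Korean rockfish (Sebastes schlegelii), a marine teleost. The machinery comprised 47 of the 19303 genes in the deposited count table. They were chosen by name and not by level: every gene whose symbol, ignoring case and a paralog letter, begins with atg and a digit, ulk, map1lc3, gabarap or wipi, or is becn1, sqstm1, rb1cc1, pik3c3, pik3r4, uvrag, tfeb, tfe3, bnip3, bnip3l, optn, nbr1 or calcoco1. The choice was made with earlier results of these data known. The 47 genes carry 37 distinct symbols when case is ignored, and 9 symbols belong to more than 1 gene. Such copies are told apart by the number that ends their identifier, so Ulk1 10021885 stands for S.schlegelii_GLEAN_10021885.

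RNA sequencing of whole liver compared 3 libraries of starved fish with 3 libraries of fed fish, each group sampled at 72 days. The labels give no strain, age, sex or fish number, and they do not say whether a library came from 1 fish or from several. The p-values therefore measure the spread between these libraries. The title codes are A6, C6 and E6 for starved replicates 1, 2 and 3, and B1, D1 and E1 for fed replicates 1, 2 and 3, and values below are listed in that order.

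In vertebrates the ULK kinase complex starts the process, and the class III phosphatidylinositol 3-kinase complex marks the site with its lipid product. ATG9 vesicles, the lipid transfer protein ATG2 and the WIPI proteins that read the lipid mark supply and shape the membrane. Ubiquitin-like conjugation then attaches Atg8 proteins (the LC3 and GABARAP families) to it, and receptors such as p62 tether cargo to those proteins. In fasting liver the pathway is known as a source of amino acids and lipids, and much of its control is exerted on proteins, by phosphorylation, which transcript counts do not measure. In whole liver, fewer cells of a type and less RNA per cell cannot be told apart.

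Total counts lay between 11623356 and 14716282 per library. Fed replicate 1 was unlike the rest: 41.7% of its uniquely mapped reads were spliced, against 50.7% to 53.3% in the other 5, and its scaling factor was 0.743, against 0.926 to 1.21 in the others. Calls on the autophagy genes that change without it, and log2 fold changes of named genes whose sign turns without it, are given both ways. Levels of a gene across libraries are in CPM, counts relative to the library total after trimmed-mean (TMM) scaling, and levels of different genes are compared only in FPKM, the authors' counts relative to coding length and library total. FPKM lacks that scaling, so fed replicate 1 reads lower there, relative to the other libraries, than in CPM.

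Liver identity was checked with hepatocyte markers such as transferrin and apolipoprotein genes. The 29 matched genes summed to between 176656 and 215482 CPM in starved livers and between 158042 and 310361 CPM in fed livers. The 11 stellate cell and fibroblast genes, with COL1A1 the most abundant, summed to 97.4 to 118 CPM in starved livers and 276 to 418 CPM in fed livers, and 4 of the 6 tested were called lower. The 10 bile duct genes, led by krt18, summed to 965 to 1456 CPM in starved livers and 1551 to 2562 CPM in fed livers, with 1 called higher among 4 tested. Sums of the red cell, macrophage, lymphocyte, endothelium, exocrine pancreas and muscle lists overlapped between the groups, and no list had a gene at 0 in every library. Fed replicate 1 set the upper end of the fed range for the hepatocyte, stellate cell, bile duct and red cell sums. It set the lower end for the endothelium, lymphocyte and muscle sums. The exocrine pancreas sum reached 338 CPM in starved replicate 3, against 13.7 to 72.2 CPM in fed livers. Of 28 hepatocyte genes tested 1 was called lower, of 8 exocrine pancreas genes 1 lower, and of 8 red cell genes 1 higher. The part of cell composition in the results below was not tested.

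Of the 47 autophagy genes, 44 had enough counts to be tested, and 2 were called higher in starved liver: Atg2b, a lipid transfer protein of the growing membrane, and Ulk1 10021885, 1 of 3 genes named for the initiating kinase. None was called lower, and 42 did not pass (edgeR quasi-likelihood test, adjusted p under 0.05 over 13338 genes); 7 of the 44, or 15.9%, had an unadjusted p under that threshold, beside 21.9% of all tested genes. Among all tested genes 2.18% were called higher and 2.98% lower, and the 2 of 44, or 4.55%, lie near the sum of these shares. The median log2 fold change (starved minus fed) of the 44 genes was 0.04, beside -0.03 over all tested genes, and without fed replicate 1 it was -0.12, beside 0.00166. For 38 of the 44, or 86.4%, the log2 fold change lay between -1 and 1, beside 82.0% of all tested genes.

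Counted without a test, starved libraries lay above every fed library for 10 of the 44 genes, or 22.7%, and below every fed library for 4, or 9.09%. The same held for 15.6% and 15.5% of all tested genes. With the DESeq2 Wald test 4 of the 44 passed, 3 higher and 1 lower, against 9.76% of all genes with an adjusted p. The authors' deposited table marks 3 of the 44 as up and 1 as down, against 8.41% of all genes that it gives a q-value, and its 4 genes are those that pass with DESeq2: Ulk1 10021885, Atg2b and ATG9A 10022246 as up, and Ulk1 10023442 as down.

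Leaving out fed replicate 1 gave 3 genes higher and 2 lower, where 5.81% of all tested genes were called higher and 6.5% lower. The 5 were Ulk1 10021885, Atg2b and ATG9A 10022246, called higher, and Ulk1 10023442 and Map1lc3b, called lower. Leaving out any 1 of the other 5 libraries gave 0 calls among the autophagy genes in the same edgeR test. Over all genes those fits called 102 to 469, fewer than the 688 with all libraries. The share of tested genes in those fits is not given here, so the 0 is not read as a result about the autophagy genes.

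**Figure D1:**
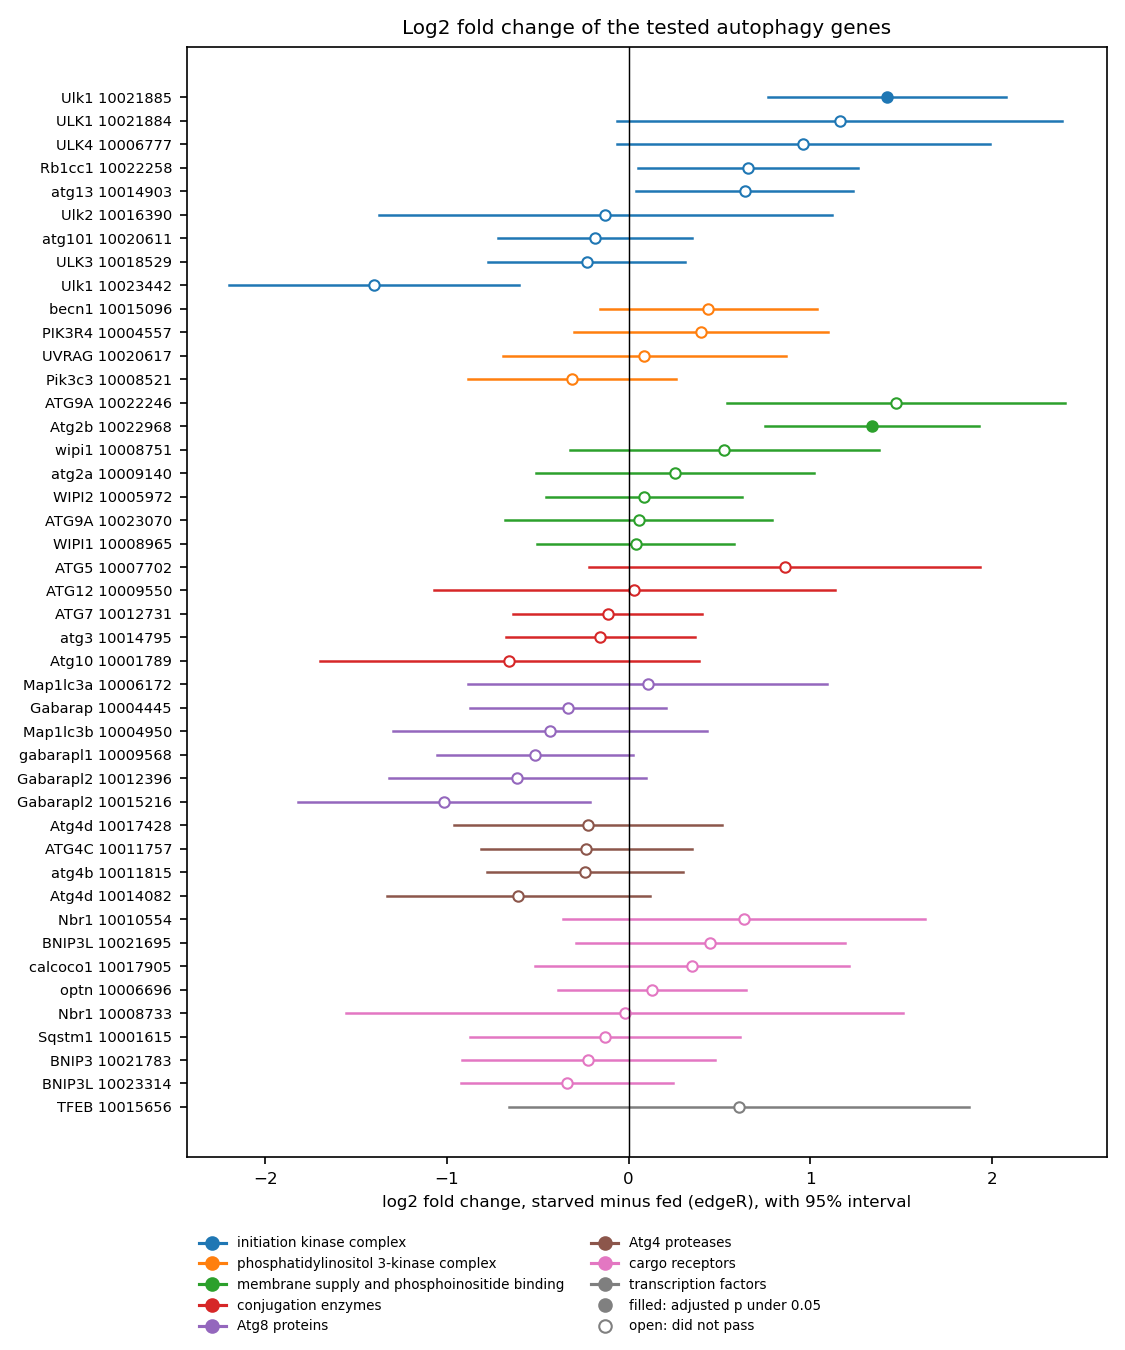
Log2 fold change (starved minus fed) of the 44 tested autophagy genes with its 95% interval, from edgeR over 3 starved and 3 fed libraries, coloured by role; filled points passed at adjusted p under 0.05. Atg2b 10022968 and Ulk1 10021885 are filled, the 6 Atg8 and 4 Atg4 genes lie mostly left of 0, and the 7 genes of membrane supply lie right of it, 5 of them also without fed replicate 1 and 6 with library sizes taken without the 20 most abundant genes.

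The initiation complex held the widest spread. Of its 9 tested genes 4, or 44.4%, had an unadjusted p under 0.05, beside 21.9% of all tested genes. The 4 did not all go the same way. ULK1 and ULK2 are the kinases, RB1CC1 (FIP200) is their scaffold, and ATG13 and ATG101 link kinase and scaffold. Ulk1 10021885 had 6.94, 8.50 and 8.0 CPM in starved livers, against 3.13, 2.41 and 3.23 CPM in fed livers. Its 3 starved values all lay above its highest fed value, a rise of 2.68-fold with a log2 fold change of 1.42 ± 0.29 (SE, 95% interval 0.77 to 2.08; edgeR adjusted p = 0.0296). It passed without fed replicate 1 (adjusted p = 0.0149), and lost its call when any 1 of the other libraries was left out (up to 0.139) and with limma on either log2 FPKM scale (up to 0.139 over all 15 alternatives).

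Ulk1 10023442 showed the opposite order of groups. It had 8.14, 6.92 and 6.76 CPM in starved livers, against 10.3, 22.7 and 24.6 CPM in fed livers. Each starved library lay below each fed library, and fed replicate 1 stood nearest to the starved ones. The log2 fold change was -1.40 ± 0.35 (95% interval -2.20 to -0.60; edgeR adjusted p = 0.0589), which did not pass. Without fed replicate 1 it passed with edgeR (adjusted p = 0.00341), and with all libraries it passed with DESeq2 (adjusted p = 0.00857).

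The third gene of that name, ULK1 10021884, has a coding length of 405 bases against 2616 for Ulk1 10021885 and 2820 for Ulk1 10023442. Its identifier is the one just before that of Ulk1 10021885, and whether the 2 are parts of 1 gene was not tested. It had 15, 35 and 22 counts in starved livers, against 9, 13 and 5 counts in fed livers. Those few counts gave a log2 fold change of 1.16 ± 0.53, which did not pass (edgeR adjusted p = 0.251).

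The summed FPKM of the 3 genes overlapped between the groups, and the shares of 2 of them in that sum did not. This sum, its shares and the Ulk2 share below count ULK1 10021884 as a separate gene, and were not computed without it. Shares of 1 sum depend on each other, and they restate the levels given above rather than add a separate result. The sum was 8.56, 12.3 and 8.74 in starved livers, against 5.52, 13.3 and 11.5 in fed livers (exact two-sided permutation test, p = 1). Ulk1 10023442 supplied 35.4%, 21.5% and 25.4% of that sum in starved livers, against 49.2%, 73.1% and 79.9% in fed livers. The share of Ulk1 10021885 was 31.1% ± 2.27 in starved livers and 11.9% ± 3.90 in fed livers (SD, n = 3 each). For neither share did the groups overlap (exact two-sided permutation test, p = 0.1 for each, the smallest that 3 against 3 libraries allow; 0.3 after adjustment over the 12 shares compared). The share of the short ULK1 10021884, 41.4% ± 8.94 in starved livers and 20.6% ± 13.1 in fed livers (SD, n = 3 each), overlapped (exact two-sided permutation test, p = 0.2; 0.48 after that adjustment).

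Ulk2, the sister kinase of ULK1, varied within each group. It had 20.5, 39.7 and 27.4 CPM in starved livers, against 9.39, 52.2 and 33.9 CPM in fed livers, and the groups overlapped (log2 fold change -0.13, 95% interval -1.37 to 1.12; edgeR adjusted p = 0.914). In FPKM it supplied 47.0% ± 4.07 of the ULK1 and ULK2 sum in starved livers and 45.0% ± 15.9 in fed livers (SD, n = 3 each; exact two-sided permutation test, p = 0.9).

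The scaffold and its adaptor were next in order of p. Rb1cc1 had 86.1, 113 and 101 CPM in starved livers, against 51.5, 75.4 and 63 CPM in fed livers. Starved libraries were above fed ones throughout, by a log2 fold change of 0.66 ± 0.26 (95% interval 0.05 to 1.26) that did not pass (edgeR adjusted p = 0.195). atg13 had 23.9, 30.0 and 30.7 CPM in starved livers, against 13.3, 19.1 and 21.8 CPM in fed livers. It showed the same order of groups and a log2 fold change of 0.64 ± 0.26, again without passing (edgeR adjusted p = 0.2). atg101, which stabilises Atg13 and had the highest FPKM of the complex, overlapped between the groups at 20.9 ± 3.53 FPKM in starved livers and 22.9 ± 3.41 FPKM in fed livers (SD, n = 3 each; log2 fold change -0.19, edgeR adjusted p = 0.678). ULK3 and ULK4 are related to ULK1 by sequence, and their part in starvation-induced autophagy is less established. They showed log2 fold changes of -0.23 and 0.96 without passing (adjusted p = 0.608 and 0.256 with edgeR). ULK4 was the lowest of the tested autophagy genes, with 0.457 ± 0.0604 FPKM in starved livers and 0.228 ± 0.0626 FPKM in fed livers (SD, n = 3 each).

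**Figure D2:**
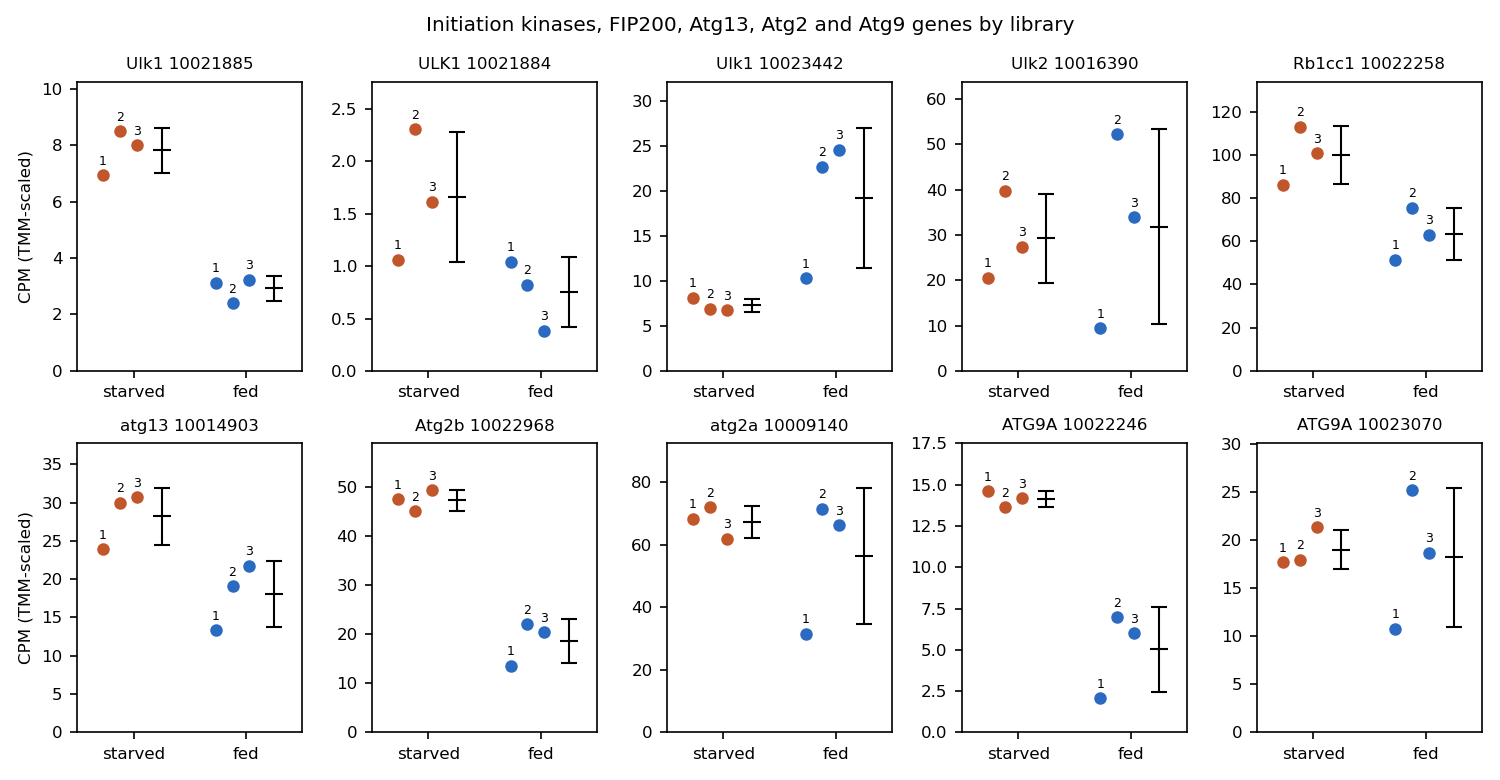
CPM after TMM scaling of 10 autophagy genes in each library (points, numbered by replicate; linear axis from 0), with the group mean and SD beside them (n = 3 each), starved left of fed. Ulk1 10021885, Atg2b 10022968 and ATG9A 10022246 have starved points above all fed points, as do ULK1 10021884, Rb1cc1 and atg13. Ulk1 10023442 has them below, and fed replicate 1 is the lowest fed point in 8 of the 10 panels.

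Genes of membrane supply came next, and 2 of the 7 had an unadjusted p under 0.05. Atg2b had 47.6, 45.1 and 49.4 CPM in starved livers, against 13.6, 22.1 and 20.4 CPM in fed livers. Its starved values lay within 5 CPM of each other and above all fed values. This was a 2.53-fold rise, with a log2 fold change of 1.34 ± 0.26 (95% interval 0.75 to 1.93; edgeR adjusted p = 0.0257). The call held without fed replicate 1 (adjusted p = 0.00752) and ended without any 1 of the other libraries (up to 0.122). It ended also when library sizes were taken without the 20 most abundant genes (adjusted p = 0.0856) and with limma on either log2 FPKM scale.

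Its sister gene atg2a, which carries out the same lipid transfer, had 68.2, 71.9 and 61.8 CPM in starved livers, against 31.5, 71.5 and 66.1 CPM in fed livers. Except for the low fed replicate 1, the 2 groups covered the same range, and it did not pass (log2 fold change 0.25, 95% interval -0.51 to 1.02; edgeR adjusted p = 0.693). Without fed replicate 1 its log2 fold change was -0.03. In FPKM, atg2a was the more abundant of the pair in every library. Atg2b made up 40.0%, 37.5% and 43.3% of the sum of both in starved livers, against 29.2%, 22.8% and 22.8% in fed livers. These shares did not overlap (exact two-sided permutation test, p = 0.1, the smallest possible; 0.3 after adjustment over the 12 shares).

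There were 2 genes named ATG9A, for the transmembrane protein of the vesicles that seed the autophagosome. ATG9A 10022246 had 14.6, 13.6 and 14.2 CPM in starved livers, against 2.09, 6.97 and 6.0 CPM in fed livers. Starved libraries agreed closely and all lay above the fed ones, with a log2 fold change of 1.47 ± 0.41 (95% interval 0.54 to 2.40) that did not pass (edgeR adjusted p = 0.0798). It passed without fed replicate 1 (0.0118) and with DESeq2 (0.0137). ATG9A 10023070 had 17.7, 18 and 21.4 CPM in starved livers, against 10.8, 25.2 and 18.7 CPM in fed livers. Those groups overlapped (log2 fold change 0.06, edgeR adjusted p = 0.938; -0.21 without fed replicate 1). ATG9A 10022246 supplied 43.7% ± 2.69 of the FPKM of both in starved livers and 21.4% ± 4.22 in fed livers (SD, n = 3 each), without overlap (exact two-sided permutation test, p = 0.1; 0.3 after adjustment over the 12 shares).

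**Figure D3:**
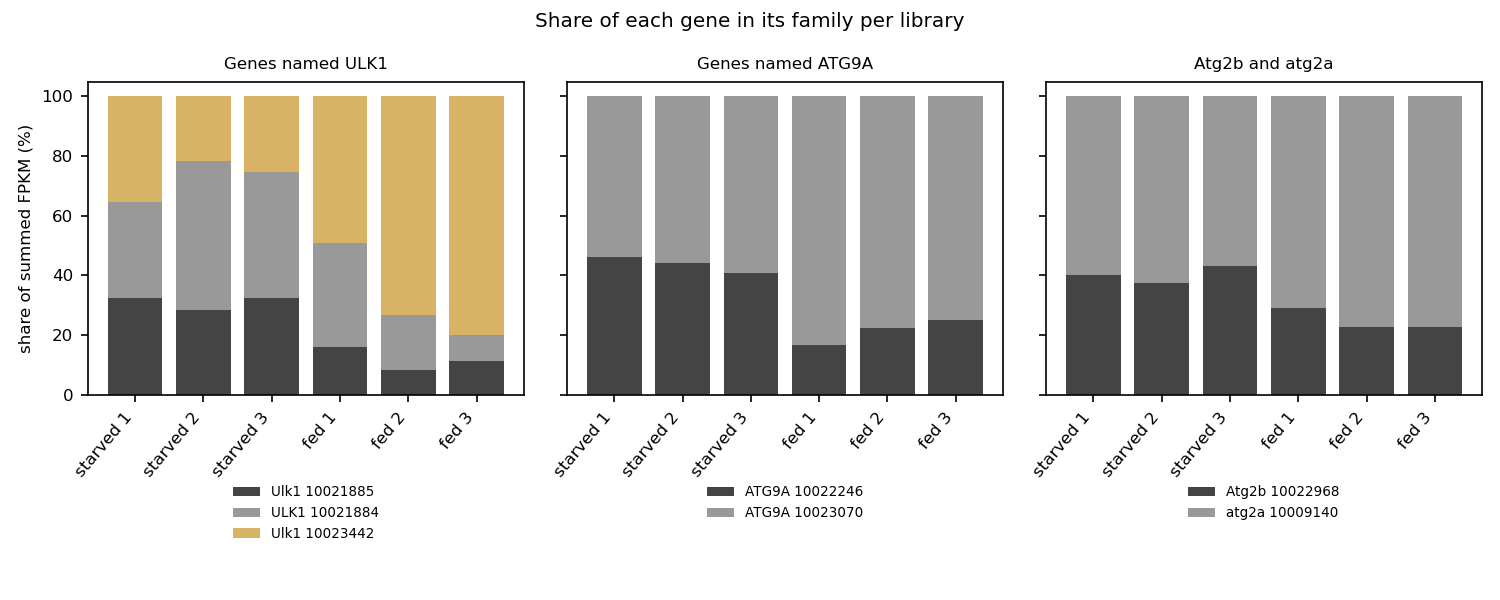
Share of each gene (% of the family's summed FPKM) in each library, starved libraries left of fed, for the 3 genes named ULK1, the 2 named ATG9A, and Atg2b with atg2a. The dark segments (Ulk1 10021885, ATG9A 10022246, Atg2b 10022968) are larger in all 3 starved libraries than in any fed library, and the top segment of the ULK1 panel (Ulk1 10023442) is smaller.

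WIPI proteins bind the lipid made by the phosphatidylinositol 3-kinase complex, and WIPI2 recruits the conjugation machinery in mammals. WIPI2 was the most abundant gene of its group per coding length, at 40.8 ± 5.11 FPKM in starved livers and 38.5 ± 13.8 FPKM in fed livers (SD, n = 3 each), and did not pass (log2 fold change 0.09, 95% interval -0.45 to 0.63; edgeR adjusted p = 0.863). wipi1 10008751 had 7.08, 9.36 and 8.15 CPM in starved livers, against 3.25, 8.50 and 5.16 CPM in fed livers, with overlapping groups (log2 fold change 0.53; edgeR adjusted p = 0.447). The other gene of that name, WIPI1 10008965, had a log2 fold change of 0.04 (edgeR adjusted p = 0.939). All 7 genes of membrane supply had a log2 fold change above 0 with all 6 libraries, 5 of the 7 without fed replicate 1 or starved replicate 3, and 6 of the 7 without fed replicate 2. With library sizes taken without the 20 most abundant genes it was 6 of 7. The log2 fold changes of WIPI2, ATG9A 10023070 and WIPI1 10008965 lay near 0, at 0.09, 0.06 and 0.04 with all libraries. The share of all tested genes above 0 is not given here, for this or for other sign counts. The median over all tested genes was -0.03.

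None of the 4 genes of the phosphatidylinositol 3-kinase complex passed, and 0 had an unadjusted p under 0.05. No gene symbol matched atg14, which this group was also set to hold. becn1 encodes Beclin-1, the subunit through which BCL2 proteins restrain the kinase. It had 13.4, 16.3 and 17 CPM in starved livers, against 8.58, 12.7 and 13.2 CPM in fed livers, so each starved value exceeded each fed one by a small margin (log2 fold change 0.44 ± 0.26, edgeR adjusted p = 0.365). PIK3R4, the regulatory subunit, had 27.8, 32.6 and 29.4 CPM in starved livers, against 13.9, 30.6 and 23.5 CPM in fed livers. Fed replicate 1 was lowest, fed replicate 3 lay below the starved values, and fed replicate 2 lay among them (log2 fold change 0.40, edgeR adjusted p = 0.489). The catalytic subunit Pik3c3 and UVRAG, a subunit of the endosomal form of the complex, showed log2 fold changes of -0.31 and 0.09 (adjusted p = 0.505 and 0.907 with edgeR), and that of UVRAG was -0.20 without fed replicate 1.

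The conjugation enzymes gave 0 calls among 5 genes, also with DESeq2, and 0 had an unadjusted p under 0.05. No gene symbol matched atg16l, which this group was also set to hold. ATG5, which joins with ATG12 into the ligase that places Atg8 proteins on the membrane, had 6.02, 7.58 and 6.68 CPM in starved livers, against 1.28, 4.18 and 5.54 CPM in fed livers. Starved libraries were above fed ones, with fed replicate 1 at the bottom, and the gene did not pass (log2 fold change 0.86 ± 0.47, edgeR adjusted p = 0.325). Atg10, the enzyme that joins those 2 proteins, had 1.98, 0.988 and 1.03 CPM in starved livers, against 2.32, 2.54 and 1.46 CPM in fed livers, and the groups overlapped at these low levels (log2 fold change -0.66, edgeR adjusted p = 0.439). atg3, the enzyme that hands Atg8 proteins to lipid, was the most abundant of the 5 per coding length, with 17.6 ± 2.17 FPKM in starved livers and 19.7 ± 7.06 FPKM in fed livers (SD, n = 3 each; log2 fold change -0.15, edgeR adjusted p = 0.725). ATG7, the activating enzyme for both conjugation reactions, and ATG12 showed log2 fold changes of -0.12 and 0.03 (adjusted p = 0.801 and 0.978 with edgeR). That of ATG12 was 0.65 without fed replicate 1 and did not pass there either (adjusted p = 0.307).

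The Atg8 genes were the most abundant part of the machinery. Per coding length, Gabarap, gabarapl1 and Map1lc3b, in that order, were the 3 most abundant of all 47 genes, with mean FPKM over the 6 libraries of 292, 185 and 137. Gabarap alone supplied 41.6% ± 1.09 of the Atg8 FPKM in starved livers and 39.9% ± 2.99 in fed livers. The LC3 genes together supplied 26.0% ± 0.793 in starved livers and 23.9% ± 10.7 in fed livers (SD, n = 3 each; exact two-sided permutation test, p = 1). In fed livers that share was 11.6% in replicate 1 against 29.3% and 30.7% in the other 2, a wider range than between the groups. The 2 genes named MAP1LC3C had 2 counts and 1 count over all 6 libraries and were not tested.

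None of the 6 tested Atg8 genes passed with all 6 libraries, and 1, Gabarapl2 10015216, had an unadjusted p under 0.05. Gabarap had 94.2, 85.2 and 88 CPM in starved livers, against 117, 114 and 106 CPM in fed livers. The starved values lay just below the fed ones (log2 fold change -0.34 ± 0.24, 95% interval -0.88 to 0.20; edgeR adjusted p = 0.445), and the groups overlapped in FPKM. gabarapl1 had 55.7, 51.2 and 55 CPM in starved livers, against 88.1, 74.3 and 69 CPM in fed livers, again with starved below fed (log2 fold change -0.51 ± 0.23, 95% interval -1.05 to 0.02; edgeR adjusted p = 0.247). Gabarapl2 10015216 had 1.91, 1.52 and 1.62 CPM in starved livers, against 2.78, 3.11 and 4.31 CPM in fed livers. That was the lowest log2 fold change of the Atg8 genes, -1.02 ± 0.35, from a gene with at most 56 counts per library (edgeR adjusted p = 0.136). Gabarapl2 10012396, which supplied 90.5% ± 2.02 of the FPKM of both copies in starved livers and 86.7% ± 6.41 in fed livers (SD, n = 3 each), had a log2 fold change of -0.61 (edgeR adjusted p = 0.292).

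For the LC3 genes, fed replicate 1 changed the call or the sign. Map1lc3b, whose lipid-bound product is the usual marker of autophagosomes, had 38.9, 44.9 and 43.5 CPM in starved livers, against 27, 71.6 and 73.3 CPM in fed livers. Fed replicate 1 was the lowest of all 6 libraries and the other fed libraries the highest (log2 fold change -0.43, 95% interval -1.30 to 0.43; edgeR adjusted p = 0.543). Without fed replicate 1 it was called lower, with a log2 fold change of -0.77 (edgeR adjusted p = 0.0252). Map1lc3a had 21.7, 12.3 and 19.2 CPM in starved livers, against 6.96, 22.4 and 19.9 CPM in fed livers, and its log2 fold change was 0.10 with all libraries and -0.26 without fed replicate 1 (edgeR adjusted p = 0.912 and 0.554). In all, 5 of the 6 Atg8 genes had a log2 fold change below 0, and 6 of 6 without fed replicate 1, without starved replicate 1 or when library sizes were taken without the 20 most abundant genes.

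ATG4 proteases trim newly made Atg8 proteins and release them from membrane. All 4 genes had a log2 fold change below 0, from -0.61 to -0.22, and none passed with edgeR or DESeq2, nor had an unadjusted p under 0.05. The one with the smallest p, Atg4d 10014082, had 9.84, 8.96 and 5.43 CPM in starved livers, against 14.8, 12.9 and 9.31 CPM in fed livers, with overlapping groups (edgeR adjusted p = 0.303). atg4b, the major form in mammals and the most abundant of the 4 per coding length, averaged 32.2 ± 5.80 FPKM in starved livers and 37.4 ± 11 FPKM in fed livers (SD, n = 3 each; log2 fold change -0.24, edgeR adjusted p = 0.593). Without starved replicate 2, 3 of the 4 were below 0.

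**Figure D4:**
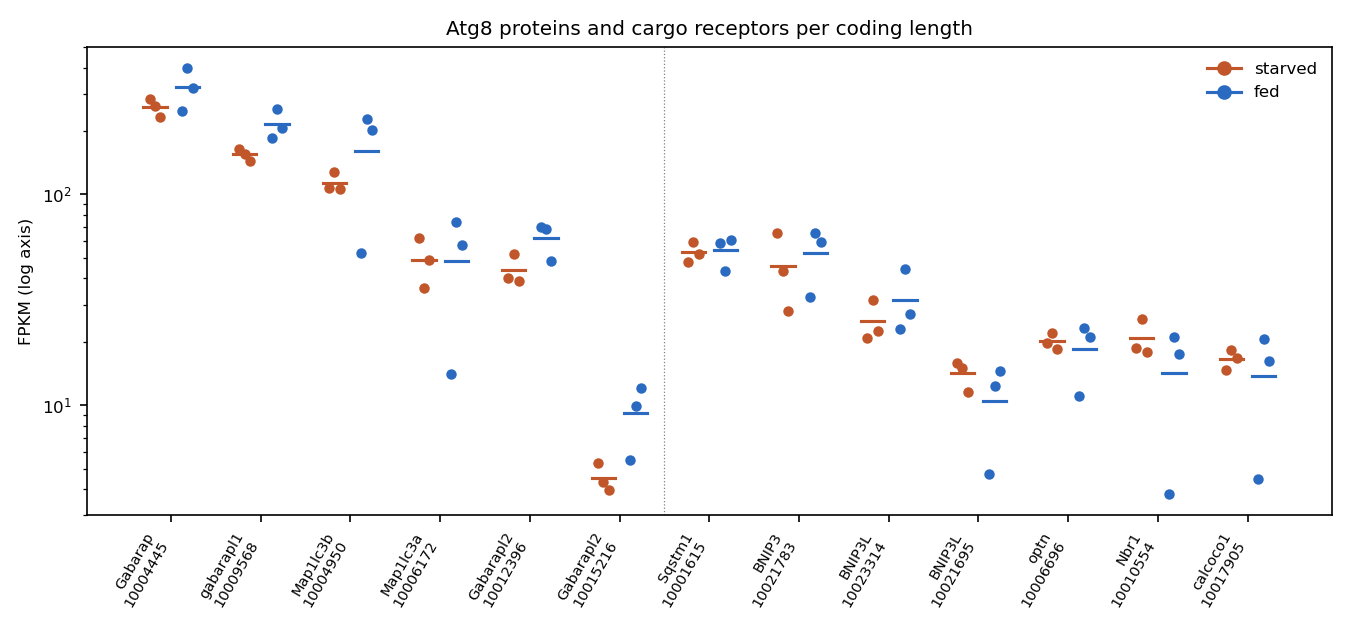
FPKM (log axis) of the 6 tested Atg8 genes, left of the dotted line, and of 7 cargo receptor genes in each library, with group means as bars, starved left of fed. Gabarap, gabarapl1 and Map1lc3b stand highest, and the lowest point of Map1lc3b, Map1lc3a, BNIP3L 10021695, optn, Nbr1 and calcoco1 is fed replicate 1.

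Cargo receptors gave 0 calls among 8 tested genes, and 0 had an unadjusted p under 0.05; with DESeq2, also 0. Sqstm1 encodes p62, which binds ubiquitin-tagged cargo and is itself degraded by autophagy. It had 60.7, 72.9 and 75 CPM in starved livers, against 105, 47.4 and 76.2 CPM in fed livers. Starved values fell inside the fed range, and the log2 fold change of -0.13 had a 95% interval of -0.87 to 0.62 (edgeR adjusted p = 0.847); without fed replicate 1 its sign turned, to 0.17. Per coding length it was the most abundant receptor, at 53.2 ± 5.70 FPKM in starved livers and 54.2 ± 9.56 FPKM in fed livers (SD, n = 3 each). Nbr1 10010554, a relative of p62 with a part in aggregate and peroxisome clearance, had 52.6, 70.6 and 57.1 CPM in starved livers, against 15.1, 51.5 and 49.2 CPM in fed livers. Starved libraries lay above fed ones, narrowly except for fed replicate 1 (log2 fold change 0.64 ± 0.43, edgeR adjusted p = 0.431).

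BNIP3 and BNIP3L sit on mitochondria and tether them for removal, and BNIP3L serves this end in maturing mammalian red cells. BNIP3L 10021695 had 9.35, 8.63 and 7.71 CPM in starved livers, against 3.94, 6.28 and 8.47 CPM in fed livers, and its groups overlapped (log2 fold change 0.45, edgeR adjusted p = 0.457). The other copy, BNIP3L 10023314, supplied 63.6% ± 5.88 of the FPKM of both in starved livers and 75.4% ± 9.25 in fed livers (SD, n = 3 each; exact two-sided permutation test, p = 0.3). Its log2 fold change was -0.34 (edgeR adjusted p = 0.481), and that of BNIP3 -0.22 (edgeR adjusted p = 0.707). optn and calcoco1 10017905, receptors for mitochondria and for endoplasmic reticulum in mammals, showed log2 fold changes of 0.13 and 0.35 (adjusted p = 0.779 and 0.625 with edgeR). A further calcoco1 gene had 1 count in all and was not tested.

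TFEB, the transcription factor that activates lysosome and autophagy genes when its nuclear entry is not blocked by mTORC1, was low. It had 35, 54 and 16 counts in starved livers, against 6, 27 and 29 counts in fed livers. The groups overlapped (log2 fold change 0.61, 95% interval -0.66 to 1.87; edgeR adjusted p = 0.56). No gene symbol in the table matched tfe3.

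Autophagy genes outside the list were read from a second list of early factors, fusion proteins, other receptors and TFEB relatives. This list too was chosen with earlier results of these data known. Of its 72 genes 66 were tested, 3 were called higher, 0 were called lower and 17, or 25.8%, had an unadjusted p under 0.05, beside 21.9% of all tested genes. Calls made up 4.55% of the list, against the background given above, and its median log2 fold change was 0.01. With DESeq2, 6 of the 72 were called higher and 3 lower, beside the 9.76% of all genes that it called in either direction. The 6 include a gene that the edgeR filter left out, so they are not all among the 66. Without fed replicate 1, edgeR called 4 higher and 4 lower, beside the 5.81% and 6.5% of all tested genes. With all libraries, the 3 edgeR calls were among the 22 tested genes grouped as early factors. Of these 22, 10, or 45.5%, had an unadjusted p under 0.05. The 10 did not all go the same way. TP53INP1, tmem41b, SH3GLB1 and Tp53inp2 had log2 fold changes of -1.03, -1.60, -0.61 and -0.65, and the rest lay above 0. TP53INP1 and tmem41b were called lower with DESeq2 (adjusted p = 0.0289 and 0.0182). Across the 22, the log2 fold changes, above 0 for 17, had a median of 0.32. Without fed replicate 1 that median was 0.16, with 7 of the 22 below 0. In that fit edgeR called 4 of the early factors higher and 3 lower. Of the 16 fusion genes 0 passed, with 4 at an unadjusted p under 0.05, and their log2 fold changes, below 0 for 14, had a median of -0.38. Without fed replicate 1 they were below 0 for 10 of the 16, with a median of -0.27. These groups are not strict steps of the pathway, and they were not sorted by whether a gene promotes or restrains it. The group of early factors also holds the genes named TECPR1, placed at lysosomal membranes below, and epg5, a fusion factor. Counts by group were not remade with those genes moved.

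Tecpr1, which in mammals binds the ATG12 and ATG5 conjugate at lysosomal membranes, had 34, 30.9 and 30.1 CPM in starved livers, against 9.63, 9.83 and 8.08 CPM in fed livers. The starved values lay close together and 3.45-fold above the fed values by the fitted ratio, a log2 fold change of 1.79 ± 0.22 (edgeR adjusted p = 0.00643). It was called under each of the 15 alternatives, with an adjusted p of at most 0.0494. Another gene of that name, TECPR1 10008430, stood at a log2 fold change of 0.27, without passing (edgeR adjusted p = 0.649).

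Of 3 genes named ZFYVE1, 2 also rose. The name stands for DFCP1, a marker of the endoplasmic reticulum platform on which autophagosomes form. ZFYVE1 10022922 had 12.3, 18.6 and 12.4 CPM in starved livers, against 1.51, 2.47 and 4.85 CPM in fed livers (log2 fold change 2.28 ± 0.43, edgeR adjusted p = 0.0249). ZFYVE1 10019386 had 13.2, 10.7 and 12.9 CPM in starved livers, against 3.71, 5.64 and 5.77 CPM in fed livers (log2 fold change 1.28 ± 0.28, edgeR adjusted p = 0.0382). Neither had overlapping groups, and both calls ended without starved replicate 1, 2 or 3 or fed replicate 2 (up to 0.114 and 0.165), that of ZFYVE1 10019386 also without fed replicate 3. Both ended too with limma on log2(FPKM + 0.1), and that of ZFYVE1 10019386 with limma on log2(FPKM + 1) and with library sizes taken without the 20 most abundant genes. The remaining gene, Zfyve1 10013130, had a log2 fold change of 0.02 (edgeR adjusted p = 0.984), and -0.33 without fed replicate 1.

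Likeness across libraries was read only for the called genes, Atg2b and Ulk1 10021885, and not among the genes most like them. Among the other 43 tested autophagy genes, those most like Atg2b in log2 CPM over the 6 libraries were ATG9A 10022246, Rb1cc1 and atg13, with Pearson r of 0.963, 0.930 and 0.913. Those most like Ulk1 10021885 were Atg2b, Rb1cc1 and atg13, at 0.897, 0.817 and 0.807. These values describe 6 libraries in 2 groups, and fed replicate 1 enters each of them.

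Coding length moved with the result. Fed replicate 1 was the lowest of all 6 libraries for 21 of the 44 tested autophagy genes, or 47.7%, beside 32.8% of all tested genes. Across the 44 genes, its log2 deviation from the other fed libraries fell with coding length (Spearman rho = -0.39, and -0.33 over all 13338 genes), and the log2 fold change rose with it (rho = 0.44, and 0.23 over all genes). Without fed replicate 1 the relation of fold change to length was rho = 0.26 for the autophagy genes and 0.07 for all genes. The median log2 fold change was -0.22 for the 15 autophagy genes under 1000 bases and 0.33 for the 12 over 2500 bases, and without fed replicate 1 -0.28 and 0.05. Atg2b, with 6231 bases the longest of them, and Ulk1 10021885, with 2616 bases, were called without that library too. Genes are not independent replicates, and what length and this library contribute to each fold change was not tested.

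**Figure D5:**
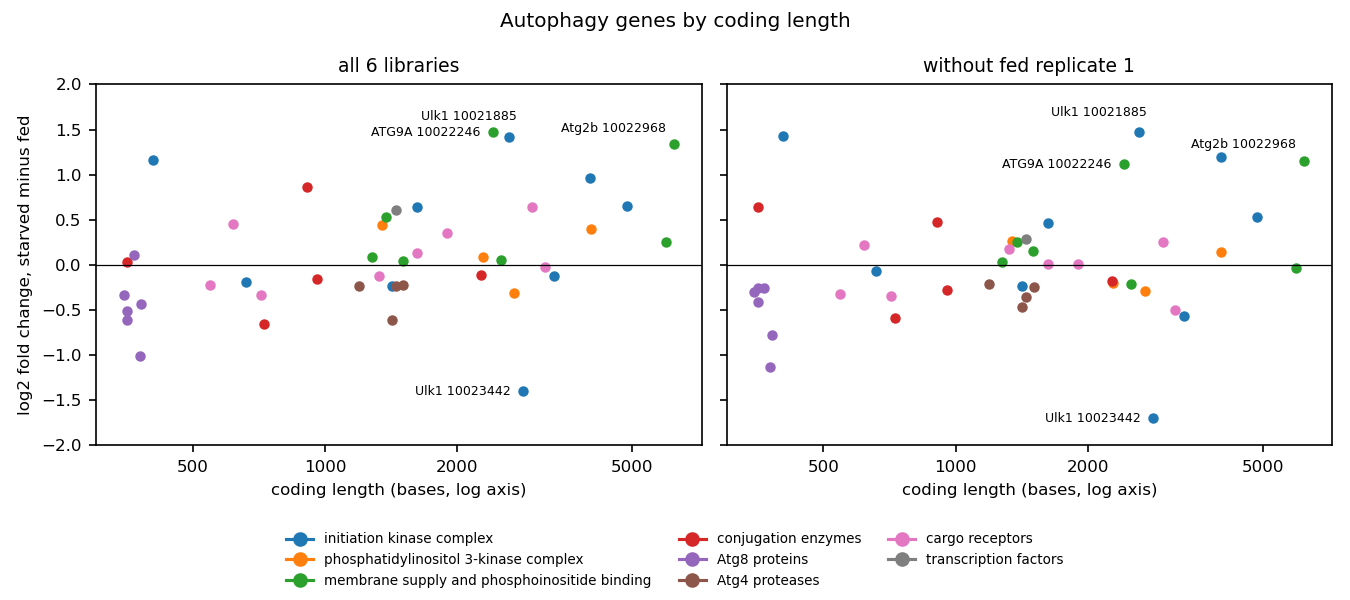
Log2 fold change (starved minus fed) of the 44 tested autophagy genes against coding length (bases, log axis), coloured by role, with all 6 libraries on the left and without fed replicate 1 on the right. The Atg8 genes at the short end lie below 0 in the right panel, and the 4 labelled genes keep their side of 0 in both.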

How the data were processed

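Whole-liver RNA was poly(A)-selected and sequenced as strand-marked paired ends, per the labels' protocols. The submitters' processing notes name HTSeq, HISAT2, Cufflinks and Trimmomatic, without roles or settings. The genome build, and whether counting used the strand, are not given in the sources used here, so reads may be shared by genes that overlap or are nearly identical. Counts were deposited by the authors as whole numbers for each gene. The authors' deposited FPKM values are counts over column total and a fixed length, and 100.0% of the recovered lengths were multiples of 3 and are called coding lengths. A deposited comparison by the authors gives a fold ratio and a q-value, test not stated. The deposited mapping statistics give read numbers per class.

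Counts were tested with edgeR 4.0.16 (R 4.3.3): filterByExpr, TMM scaling, robust quasi-likelihood F test, starved minus fed, Benjamini-Hochberg adjustment over all 13338 genes, calls at adjusted p under 0.05. The same test was also run on simulated counts, with the same dispersion for every gene. Shares of FPKM used exact permutation tests (scipy 1.17.1). Alternatives used DESeq2 1.42.0, limma 3.58.1 and each library left out. The chi-square per degree of freedom between libraries of a group was 33.6 to 149, so none were repeats of 1 library. Depth limits genes with few counts, for which intervals are wide. The autophagy genes and lists were chosen with earlier results of these data known. Named are called genes and their copies, the 2 uncalled genes with the smallest p and the most abundant gene of each role, and the Atg8 genes, Sqstm1, becn1, the ULK1 genes and TFEB, with called genes of the second list. Other genes were named after their values were seen.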

Additional observations from a re-analysis of the deposited data

How the results depend on the processing

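In all genes, calls numbered 688 with all libraries and TMM scaling, 1513 with the DESeq2 Wald test, 445 with limma on log2(FPKM + 0.1), and 102 to 1704 when 1 library was left out, the lowest without starved replicate 1 and the highest without fed replicate 1. The 2 autophagy genes called higher became 1 with library sizes taken without the 20 most abundant genes, 0 with limma on log2(FPKM + 1) or log2(FPKM + 0.1), and 0 to 3 without 1 library. Genes called lower, 0 in the main test, numbered 1 with DESeq2 and 0 to 2 without 1 library. The second list gave 3 higher and 0 lower, against 6 and 3 with DESeq2, 1 higher with limma on log2(FPKM + 0.1), and 1 to 4 higher and 0 to 4 lower without 1 library. The median log2 fold change of the autophagy genes, 0.04, was 0.18 with limma on log2(FPKM + 0.1) and -0.12 to 0.19 without 1 library. Among the 29 named genes counted below, signs turned for Sqstm1 and Map1lc3a. That of Sqstm1 turned without fed replicate 1 (0.17, in a range of -0.37 to 0.17 when 1 library was left out). That of Map1lc3a turned with library sizes taken without the 20 most abundant genes (-0.00102) and without starved replicate 1 (-0.06). It turned also without fed replicate 1 (-0.26, in a range of -0.26 to 0.40 when 1 library was left out). Other genes given above were not among the 29, and signs turned there too. Examples when 1 library was left out are Ulk2 (-0.56 to 0.44), ATG12 (-0.29 to 0.65) and WIPI1 10008965 (-0.08 to 0.15). Of 435 values for the 29 named genes over 15 alternatives, 398 kept direction and side of the threshold, 28 lost a call, 5 gained one and 4 turned sign. Most of the 29 genes had no call to lose, and the 28 losses fell on genes called in the main test. Calls held in 8 of the 15 alternatives for Ulk1 10021885 and in 7 for Atg2b. They held in 15 for Tecpr1, 10 for ZFYVE1 10022922 and 7 for ZFYVE1 10019386. The cause was not tested. No paired analysis was possible because the title codes share no number between the groups, and only 1 letter, in starved E6 and fed E1. Genes with few counts, such as ULK1 10021884, TFEB and Atg10, are limited by depth.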
